A study of Homo sapiens with 12 samples.

Results

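Cadherins are calcium-dependent adhesion molecules that hold neighbouring cells together. Their extracellular repeats bind cadherins on the next cell, and the cytoplasmic tails of the classical members bind catenins, which tie the junction to actin. Epithelia typically use E-cadherin, mesenchymal and many mesothelial cells use N-cadherin, and a shift between the pair is often called cadherin switching. CDH6 (K-cadherin) is known from the developing kidney and is a surface target of antibody-drug conjugates in ovarian cancer. The genes described here are CDH1, CDH2, CDH3, CDH5, CDH6, CDH11 and CDH16, which are 7 of the 26485 genes in a table of read counts. They were chosen by symbol, with CDH6 included because its counts were lower after prexasertib in both lines of the study. The drug comparisons therefore carry no p-value for any of the 7, and their values there are a description.

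The counts come from RNA sequencing of 2 established lines grown from human serous ovarian cancers of high grade, COV362 and PEO1. Cells received either prexasertib at 20 nM, which blocks the kinases CHK1 and CHK2 of the DNA damage checkpoint, or the vehicle DMSO. The 4 groups were COV362 with prexasertib, COV362 with DMSO, PEO1 with prexasertib and PEO1 with DMSO, each with 3 libraries (A, B and C). No duration of treatment is stated in the labels. They also do not say whether libraries of a group come from separate cultures, so p-values measure only the spread between these libraries. Both lines grew in the same medium with serum and insulin.

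Library totals ran from 9390790 counts (COV362 DMSO A) to 18262805 counts (COV362 DMSO B). Levels are given as CPM, the reads of a gene per 1000000 reads of its library after scaling. Within groups, log2 CPM correlated between libraries at 0.953 to 0.987 over genes. The lean of a library's counts toward long or short exons differed between libraries of a group, with a rho with exon length of −0.41 (COV362 DMSO A) to 0.43 (COV362 DMSO B). It was negative in the A library of all 4 groups (−0.41 to −0.34) and positive in the B library of all 4 (0.13 to 0.43). Of 9 markers of serous carcinoma epithelium, 9 had a mean over 1 CPM in every group. Their summed level was 2350 to 3550 CPM with prexasertib and 2320 to 2860 CPM with DMSO in COV362, and 3780 to 4480 CPM with prexasertib and 7440 to 8730 CPM with DMSO in PEO1, and its part in the PEO1 results was not tested. Markers of kidney tubule summed to at most 0.782 CPM in any library, and those of leukocytes to at most 5.16 CPM. After a filter on low counts, 14498 genes were tested with edgeR's quasi-likelihood test, and a call means a p below 0.05 after Benjamini-Hochberg (BH) adjustment. Of the 7 cadherins 6 passed the filter. CDH1, CDH3 and CDH11 passed only through PEO1, and CDH16 did not pass.

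CDH6 (chromosome 5, 31193655 to 31329146, plus strand, build hg38) encodes a type II classical cadherin. In COV362 it was measured at 143, 165 and 145 CPM in prexasertib libraries A, B and C, against 342, 456 and 341 CPM in DMSO libraries A, B and C. Every prexasertib library was below every DMSO library, and the B library was the highest of its group in both. Group means were 151 ± 12.6 CPM with prexasertib and 380 ± 66 CPM with DMSO (SD, n = 3 each), a log2 fold change of −1.33 ± 0.14 (SE), or 39.7% of the DMSO level. These are measures of RNA from whole cultures, in which fewer cells carrying the transcript and less transcript per cell cannot be told apart.

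In PEO1 the same gene had far fewer reads. It was measured at 1.82, 2.03 and 2.23 CPM in prexasertib libraries A, B and C, against 22.9, 21.7 and 19.7 CPM in DMSO libraries A, B and C. Those levels stand on 31, 37 and 37 reads with prexasertib and on 351, 399 and 359 reads with DMSO. The groups were again apart, with means of 2.03 ± 0.206 CPM with prexasertib and 21.4 ± 1.6 CPM with DMSO (SD, n = 3 each). The log2 fold change was −3.40 ± 0.17, so the prexasertib level was 9.5% of the DMSO level.

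The change of CDH6 in PEO1 minus that in COV362 was −2.06 ± 0.22 on the log2 scale. Of the 14498 tested genes, 162 had a lower log2 fold change than CDH6 in COV362 and 26 had a lower one in PEO1. On a per-length scale (CPM divided by exon length in kilobases, RPKM), 3439 genes stood above CDH6 in COV362 with prexasertib and 1648 with DMSO. In PEO1 the corresponding numbers were 13807 genes with prexasertib and 9316 with DMSO.

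**Figure D1:**
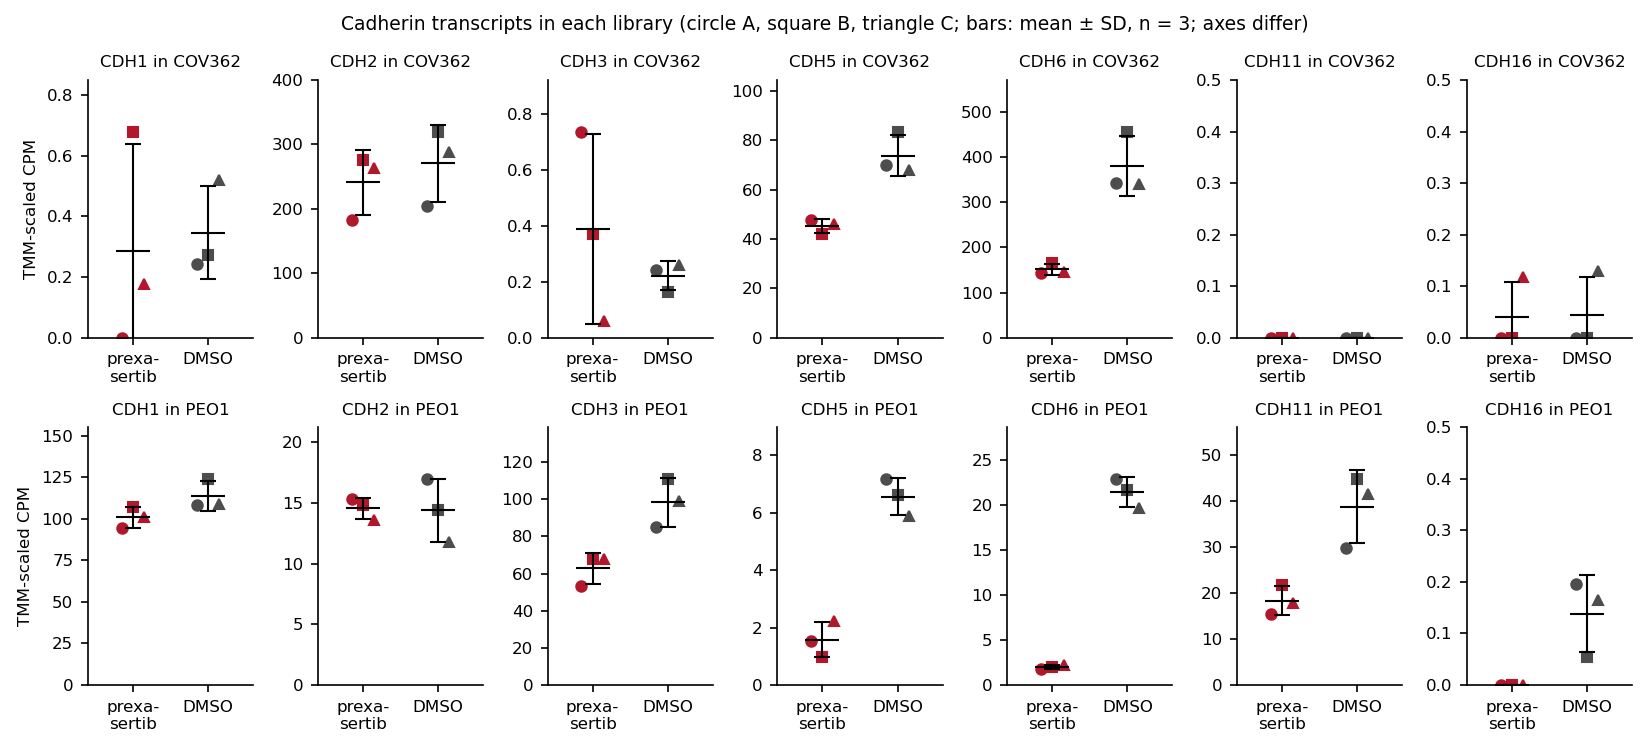
CPM (scaled by the trimmed mean of M-values) of the 7 cadherins in each library, COV362 above and PEO1 below, prexasertib left of DMSO. Symbols are libraries A, B and C and bars are means ± SD, with a separate axis per panel; the CDH6 and CDH5 libraries do not overlap between treatments in either line, and CDH2 libraries overlap in both.

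The other type II members were CDH5 and CDH11. CDH5 (VE-cadherin, chromosome 16, 66366622 to 66404786, plus strand) is best known as the junctional cadherin of endothelium. It was measured in COV362 at 47.6, 42 and 46 CPM in prexasertib libraries A, B and C, against 69.9, 83.6 and 68.1 CPM in DMSO libraries A, B and C. The groups did not overlap, and the log2 fold change was −0.71 ± 0.18. In PEO1 CDH5 was measured at 1.53, 0.989 and 2.23 CPM in prexasertib libraries A, B and C, against 7.18, 6.62 and 5.88 CPM in DMSO libraries A, B and C. The groups did not overlap there either, at 81 reads over the prexasertib libraries and 339 over the DMSO libraries. The log2 fold change was −2.05 ± 0.23 in PEO1, and the difference between the lines was −1.34 ± 0.30.

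Since CDH5 marks endothelium, the other markers of that cell type are given beside it. Of 8 further endothelial genes, 4 had a mean over 1 CPM in COV362 with prexasertib and 4 with DMSO, and their sum was 10.4 to 15.2 CPM with prexasertib and 14.9 to 15.3 CPM with DMSO. KDR, an endothelial growth factor receptor gene, was the highest of the 8 in COV362, with 6.17 ± 2.03 CPM with prexasertib and 7.32 ± 0.888 CPM with DMSO (SD, n = 3 each). In PEO1, 1 of the 8 exceeded 1 CPM in each group, with sums of 1.92 to 4.23 CPM with prexasertib and 1.85 to 3.08 CPM with DMSO. TEK, TIE1 and EMCN had 0 counts in PEO1 DMSO, and EMCN had 0 counts in both prexasertib groups. Their part in the CDH5 values was not tested.

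CDH11 (OB-cadherin, chromosome 16, 64943753 to 65122137, minus strand) is known from osteoblasts and mesenchymal cells. It had 0 reads in all 6 COV362 libraries, which allows up to 0.0661 CPM with prexasertib and up to 0.0717 CPM with DMSO (3 counts over each group, counting error only). In PEO1 it was measured at 15.4, 21.7 and 17.9 CPM in prexasertib libraries A, B and C, against 29.8, 44.8 and 41.6 CPM in DMSO libraries A, B and C. The A library was the lowest of both groups, and all prexasertib libraries lay below all DMSO libraries. The log2 fold change was −1.08 ± 0.22.

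THY1, a marker of fibroblasts among other cells, was lower in the same PEO1 prexasertib libraries. Of 7 fibroblast and stroma genes, 2 exceeded 1 CPM with prexasertib and 2 with DMSO, and the summed level was 60.6 to 77.6 CPM with prexasertib and 220 to 293 CPM with DMSO. THY1 made up most of that sum, at 65.7 ± 9.51 CPM with prexasertib and 248 ± 37.8 CPM with DMSO (SD, n = 3 each). COL1A1 had 4.93 ± 1.38 CPM with prexasertib and 6.18 ± 1.46 CPM with DMSO, a difference within the spread, and the other 5 stayed under 1 CPM on average in both PEO1 groups. LUM had 0 counts in both, and DCN and PDGFRA had 0 counts in PEO1 DMSO. Their part in the CDH11 values was not tested.

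The type I members are CDH1, CDH2 and CDH3. CDH1 (E-cadherin, chromosome 16, 68737292 to 68835541, plus strand) is the main cadherin of epithelia. In PEO1 it was measured at 94.5, 107 and 101 CPM in prexasertib libraries A, B and C, against 108, 124 and 109 CPM in DMSO libraries A, B and C. All prexasertib libraries were below all DMSO libraries, though by little, and the log2 fold change was −0.18 ± 0.23. In COV362 CDH1 had 0, 11 and 3 reads with prexasertib and 2, 5 and 8 reads with DMSO, a level near the detection limit in both groups.

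CDH3 (P-cadherin, chromosome 16, 68644248 to 68699054, plus strand) is known from basal layers of stratified epithelia and from placenta. In PEO1 it was measured at 53.1, 67.8 and 67.7 CPM in prexasertib libraries A, B and C, against 85, 111 and 98.8 CPM in DMSO libraries A, B and C. The groups did not overlap, and the log2 fold change was −0.65 ± 0.22. In COV362 it had 9, 6 and 1 reads with prexasertib and 2, 3 and 4 reads with DMSO. An antisense gene of GENCODE release 29 shares 30% of the exon length of CDH3, and the library kit does not keep the strand, so reads of that stretch cannot be assigned to either gene with certainty. Such overlaps cover 4.4% of the exon length of CDH1, 3.06% of CDH2 and 1.46% of CDH6.

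CDH2 (N-cadherin, chromosome 18, 27950963 to 28177446, minus strand) is typical of neural, mesenchymal and mesothelial cells. It was measured in COV362 at 183, 276 and 264 CPM in prexasertib libraries A, B and C, against 204, 320 and 288 CPM in DMSO libraries A, B and C. The groups overlapped, with a log2 fold change of −0.17 ± 0.19. In PEO1 it was measured at 15.3, 14.8 and 13.6 CPM in prexasertib libraries A, B and C, against 17, 14.4 and 11.8 CPM in DMSO libraries A, B and C. These overlapped too, with a log2 fold change of 0.023 ± 0.20. With the library letter as a block, the standard error for CDH2 was 0.082 in COV362 (log2 fold change −0.16).

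CDH16 (kidney-specific cadherin, chromosome 16, 66908122 to 66918984, minus strand) has a short cytoplasmic tail and is not a classical cadherin. It had 0, 0 and 2 reads with prexasertib and 0, 0 and 2 reads with DMSO in COV362, and 0, 0 and 0 reads with prexasertib and 3, 1 and 3 reads with DMSO in PEO1. All of these are at or below 3 counts per library, and no difference could be measured at this depth in COV362. In PEO1 the DMSO group had 7 reads and the prexasertib group 0. With so few reads, and with CDH16 not past the filter, this was not tested and no fold change is given.

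Read against all tested genes, the counts of called cadherins were as follows. In COV362 1 of 6 was called, CDH6, on the lower side, where 0.828% of all tested genes were called (0.607% higher and 0.221% lower). DESeq2 and limma-voom also called CDH5 there. With the library letter as a block, CDH5 and CDH6 were called, at 13.6% of tested genes (5.74% higher and 7.9% lower), and the CDH6 log2 fold change was −1.32 ± 0.084. In PEO1 4 of 6 were called, CDH3, CDH5, CDH6 and CDH11, all lower, where 29.3% of tested genes were called (14.7% higher and 14.6% lower). For the difference between the lines 2 were called, CDH5 and CDH6, where 6.1% of tested genes were called (3.14% higher and 2.97% lower). Nothing is read from these counts, because the same comparisons chose CDH6. The 6 also include CDH11, with 0 reads in COV362, and CDH1 and CDH3, near the detection limit there. Their response in COV362, and so their difference between the lines, could hardly be called. The CDH3 call in PEO1 was lost on leaving out COV362 DMSO C, PEO1 DMSO B, PEO1 DMSO C or any PEO1 prexasertib library, with its log2 fold change at −0.80 to −0.59 over the 12 leave-outs. The CDH5 call of the difference was lost without the A libraries, without COV362 DMSO C and without COV362 prexasertib C, and the CDH5 difference was −1.72 to −1.14 over the leave-outs.

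**Figure D2:**
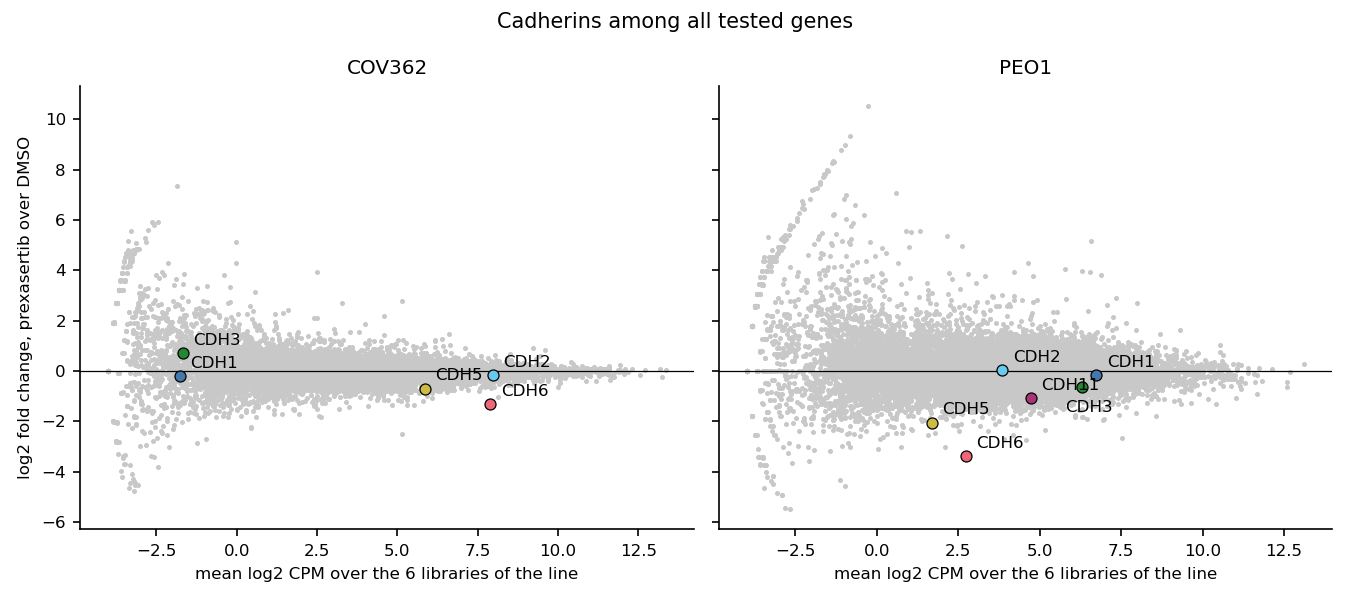
Log2 fold change of prexasertib over DMSO against mean log2 CPM for every tested gene (grey) and the cadherins (coloured), COV362 left and PEO1 right. CDH6 lies at −1.33 in COV362 and −3.40 in PEO1, CDH2 near 0 in both, and CDH11 is not drawn in COV362, where it had 0 counts.

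The lines held different sets of cadherins on the per-length scale. In COV362 the mean RPKM of CDH2 was 54.1 with prexasertib and 60.8 with DMSO, that of CDH6 was 17.6 with prexasertib and 44.3 with DMSO, and that of CDH5 was 10.9 with prexasertib and 17.9 with DMSO. CDH1 and CDH3 stayed under 0.1 RPKM on average in both COV362 groups. The order CDH2, CDH6, CDH5 held in every COV362 library, with CDH2 at 45.7 to 71.8 RPKM and CDH6 at 39.8 to 53.2 RPKM under DMSO, ranges that overlap. With prexasertib CDH2 was at 41.2 to 62 RPKM and CDH6 at 16.6 to 19.3 RPKM, ranges that do not.

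In PEO1 CDH1 had 20.9 RPKM with prexasertib and 23.6 RPKM with DMSO, and CDH3 had 14.7 RPKM with prexasertib and 23 RPKM with DMSO. Under DMSO the ranges of CDH1 (22.4 to 25.7 RPKM) and CDH3 (19.9 to 26 RPKM) overlapped, so their order there is within the spread. CDH11 had 2.63 RPKM with prexasertib and 5.55 RPKM with DMSO, and CDH2 had 3.28 RPKM with prexasertib and 3.23 RPKM with DMSO. CDH11 was above CDH2 in every DMSO library, and their ranges overlapped with prexasertib. CDH6 had 0.237 RPKM with prexasertib and 2.5 RPKM with DMSO, and CDH5 had 0.383 RPKM with prexasertib and 1.59 RPKM with DMSO. CDH6 was above CDH5 in all PEO1 DMSO libraries, and the ranges overlapped with prexasertib.

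As a share of the summed RPKM of the 7 genes, CDH6 made up 21.4 ± 2.32% in COV362 with prexasertib and 36.1 ± 3.03% with DMSO (SD, n = 3 each). CDH2 made up 64.9 ± 4.88% with prexasertib and 49.1 ± 4.42% with DMSO. The sum itself was 82.8 ± 11.7 RPKM with prexasertib and 123 ± 21.4 RPKM with DMSO. In PEO1 the sum was 42.1 ± 3.46 RPKM with prexasertib and 59.5 ± 5.47 RPKM with DMSO. There CDH1 made up 49.7 ± 1.46% with prexasertib and 39.7 ± 0.968% with DMSO, and CDH6 made up 0.562 ± 0.0387% with prexasertib and 4.23 ± 0.561% with DMSO.

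**Figure D3:**
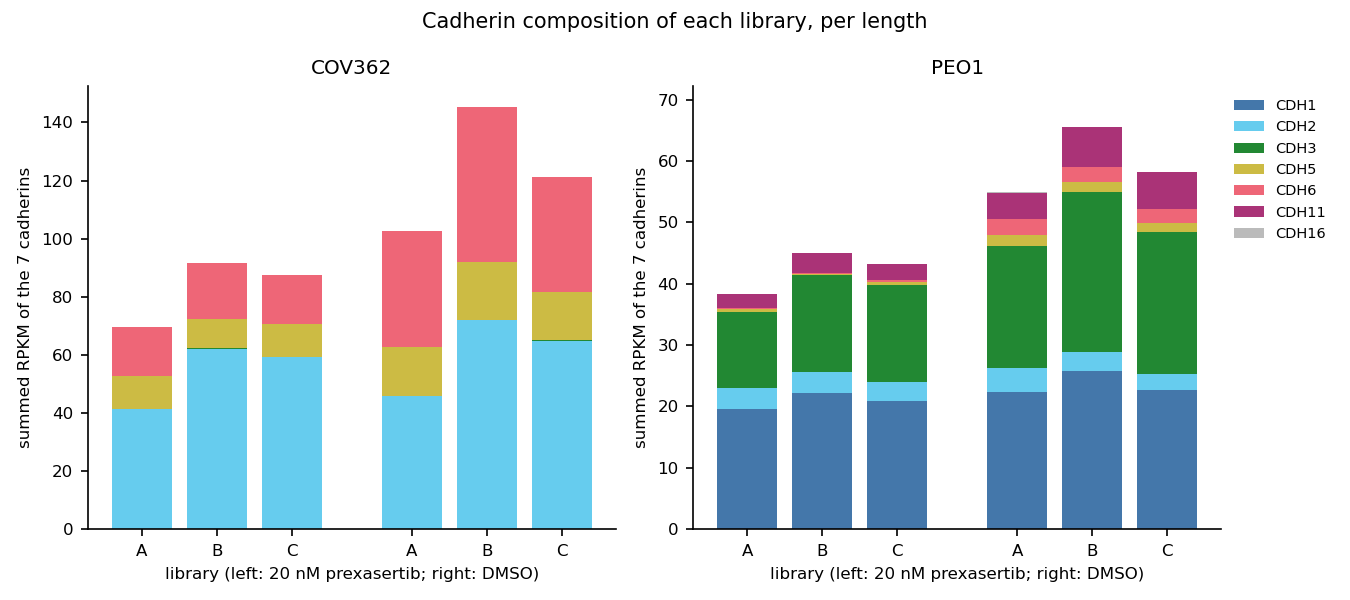
Summed RPKM of the 7 cadherins in each library, stacked by gene, with prexasertib libraries left of DMSO libraries in each line. COV362 bars hold CDH2, CDH6 and CDH5, and PEO1 bars hold mostly CDH1 and CDH3; the mean sums are 82.8 RPKM with prexasertib and 123 RPKM with DMSO in COV362, and 42.1 RPKM with prexasertib and 59.5 RPKM with DMSO in PEO1.

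The vehicle groups compare the lines without drug. The rule that chose the genes did not use this comparison, but it did use these DMSO libraries against the prexasertib ones, and the genes were picked with earlier results known. PEO1 DMSO held more CDH1, CDH3 and CDH11 than COV362 DMSO and less CDH2, CDH5 and CDH6. CDH1 averaged 114 ± 8.79 CPM in PEO1 and 0.346 ± 0.153 CPM in COV362 (SD, n = 3 each), a log2 fold change of 8.28 ± 0.38. CDH3 averaged 98.4 ± 13.2 CPM in PEO1 and 0.222 ± 0.0511 CPM in COV362 (log2 8.78 ± 0.38). CDH11 was at least 548-fold higher in PEO1, with 3 counts over the COV362 group as the floor. These 3 genes passed the filter on low counts only through PEO1, where they are high, so their direction was fixed by the filter and no p-value is given.

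CDH6, CDH2 and CDH5 passed the filter in both lines and were lower in PEO1. CDH6 averaged 21.4 ± 1.6 CPM in PEO1 and 380 ± 66 CPM in COV362, 17.7-fold lower in PEO1 (log2 −4.15 ± 0.16, edgeR, BH-adjusted p = 1.06e-10). CDH2 averaged 14.4 ± 2.63 CPM in PEO1 and 271 ± 60 CPM in COV362, 18.8-fold lower in PEO1 (log2 −4.23 ± 0.22, edgeR, BH-adjusted p = 2.17e-09). CDH5 averaged 6.56 ± 0.65 CPM in PEO1 and 73.9 ± 8.46 CPM in COV362, 11.3-fold lower in PEO1 (log2 −3.49 ± 0.21, edgeR, BH-adjusted p = 7.15e-09). Of all tested genes 57.7% were called in this comparison (29.1% higher and 28.6% lower). The calls of CDH2, CDH5 and CDH6 were made in every alternative that was run, and their PEO1 and COV362 libraries did not overlap.

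**Figure D4:**
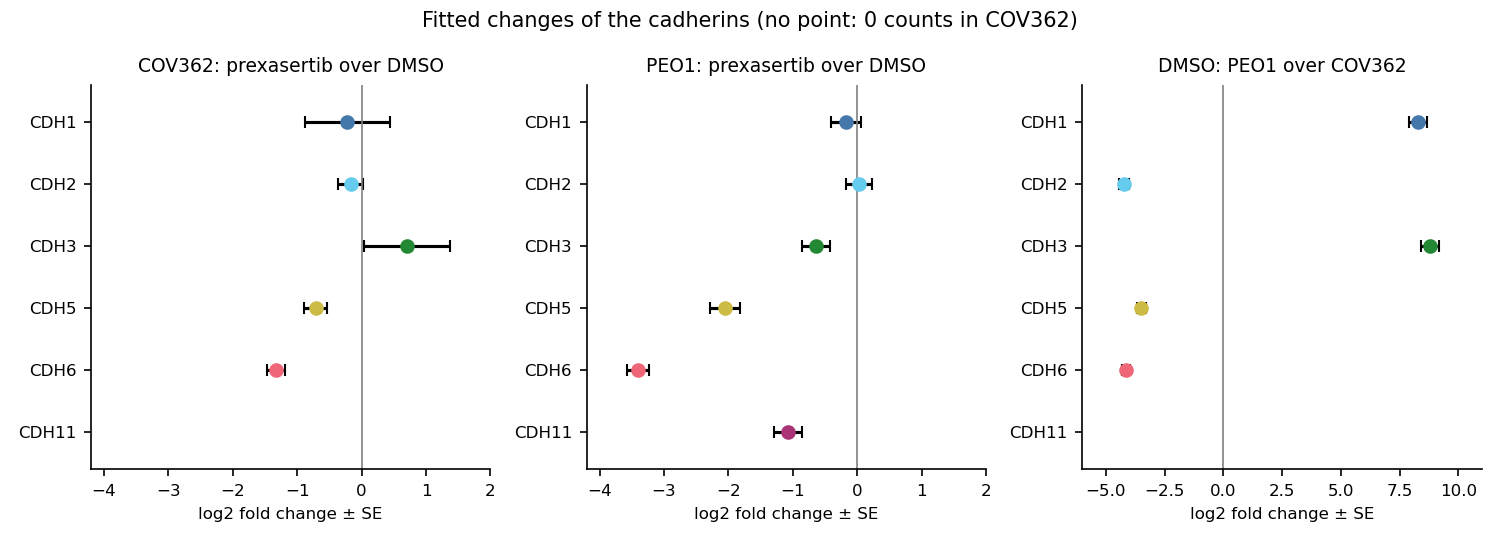
Fitted log2 fold changes of the cadherins with standard errors, for prexasertib over DMSO in COV362 (left) and PEO1 (middle) and for PEO1 over COV362 under DMSO (right). CDH6 lies at −1.33 and −3.40 in the drug panels; the line panel separates CDH1 and CDH3 at 8.28 and 8.78 from CDH2, CDH5 and CDH6 at −4.23 to −3.49.

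The genomic positions of the members were compared with their levels. On chromosome 16 the genes lie in the order CDH11, CDH5, CDH16, CDH3, CDH1, with gaps of 1244484, 503335, 1725263 and 38237 bases between them. CDH11 and CDH5, neighbours among the genes that passed the filter, differed between the lines in opposite directions. The genes flanking the CDH3 and CDH1 pair had reads in COV362, where that pair was near 0. Of these, TANGO6 had 14.5 ± 2.13 CPM in PEO1 DMSO and 22.6 ± 1.26 CPM in COV362 DMSO, and ZFP90 had 14.5 ± 1.65 CPM in PEO1 DMSO and 11 ± 2.3 CPM in COV362 DMSO (SD, n = 3 each).

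CDH6 lies alone on its lower side, with no gene of the table within 1000000 bases below it. Above it within that distance are DROSHA, C5orf22, PDZD2, MIR4279, GOLPH3 and MTMR12. In COV362 none of the 5 tested neighbours was called by edgeR, with the smallest adjusted p at 0.312 (PDZD2). PDZD2 had a log2 fold change of −0.96 ± 0.39 in COV362 (edgeR, BH-adjusted p = 0.312) and −0.92 ± 0.45 in PEO1 (adjusted p = 0.139). In PEO1 only C5orf22 was called, and it was higher (0.54 ± 0.16, edgeR, BH-adjusted p = 0.0247). DROSHA, the microRNA-processing nuclease gene next to CDH6, had log2 fold changes of −0.25 ± 0.14 in COV362 and −0.22 ± 0.14 in PEO1, neither called (edgeR, BH-adjusted p of 0.513 and 0.257).

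Among 11755 genes whose mean reached 1 CPM in both lines, those most like CDH6 in log2 CPM over all 12 libraries were SDPR, LOXL1-AS1, FHOD3, FAM20C and RPA1. Their Pearson correlations with CDH6 ran from 0.9918 to 0.9952. The 12 points fall into the lines and treatments and share library depth, so these values describe a likeness of pattern and nothing more. SDPR, a caveola-associated protein gene, had 57.7 ± 8.37 CPM with prexasertib and 90.5 ± 13.4 CPM with DMSO in COV362, and 4.17 ± 0.0521 CPM with prexasertib and 19 ± 3.78 CPM with DMSO in PEO1 (SD, n = 3 each).

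Within the 6 COV362 libraries the most similar genes included TNS3, DDX17, DAPK1 and RPA1 (0.9893 to 0.995). Within the 6 PEO1 libraries they were ANKRD2, TGM1, CACNG4, BACE2 and C1R (0.9985 to 0.9993). RPA1, which encodes a subunit of the single-stranded DNA binding complex, stood on the COV362 list and on the 12-library list. Of the cadherins, CDH5 was closest to CDH6, at 0.989 over 12 libraries, 0.968 in COV362 and 0.959 in PEO1. In PEO1 CDH11 was at 0.915, CDH3 at 0.901, CDH1 at 0.741 and CDH2 at −0.0863.

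The genes around the cadherins were grouped in lists of other cadherins, large cadherins, catenins, shedding enzymes, transcriptional regulators, ovarian surface targets and lineage factors. Together the lists held 101 tested genes, of which 1 rose and 3 fell in COV362, or 3.96% called, beside 0.828% of all tested genes. In PEO1 15 rose and 26 fell, or 40.6%, beside 29.3% of all tested genes. With the letter block 5 rose and 21 fell in COV362, where 13.6% of all tested genes were called. Between the DMSO groups 42 were higher and 34 lower in PEO1, or 75.2%, beside 57.7% of all tested genes. A list gene that passed the filter on low counts only through the group or line where it is high had its direction fixed by the filter. It is given with no p-value in that comparison, and such genes remain in the counts. The difference between the lines (PEO1 minus COV362) was called with 5 positive and 9 negative, or 13.9%, beside 6.1% of all tested genes. List medians below are log2 fold changes, with a gene at 0 in a group set to its bound or left out. The median of all tested genes was −0.011 in COV362 and 0.0089 in PEO1. Of all genes, DESeq2 called 533 in COV362 and 5066 in PEO1, and limma-voom called 131 in COV362 and 4640 in PEO1. No share of all tested genes is given at an unadjusted p, so nothing is read from list counts at that setting.

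Of 16 other classical and atypical cadherins, 4 were tested, namely CDH4, CDH18, CDH23 and CDH24. None was called in either line by edgeR. At an unadjusted p under 0.05 the counts were 0 higher and 1 lower in COV362 and 1 higher and 1 lower in PEO1. DESeq2 called 1 lower in COV362 and 0 in PEO1, and limma-voom called 0 in both. The list medians were −0.54 in COV362 and 0.69 in PEO1. CDH18 had 0.703 ± 0.707 CPM with prexasertib and 3.54 ± 0.689 CPM with DMSO in COV362 (log2 −2.28 ± 0.64, not called in the main fit and called with the letter block). It passed the filter on low counts only through COV362 DMSO, where it is high, so no p-value is given for it. In PEO1 DMSO it was lower than in COV362 DMSO (log2 −6.26 ± 0.96), whereas CDH24 was higher there (0.97 ± 0.26, edgeR, BH-adjusted p = 0.00478).

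Among 18 tested desmosomal and large cadherins, 5 rose and 3 fell in PEO1 (median 0.23), or 44.4%, beside 29.3% of all tested genes. Protocadherins, which are mostly studied in neurons, were called on both sides. PCDH1 fell to 63 ± 9.27 CPM with prexasertib, against 141 ± 14.2 CPM with DMSO (log2 −1.17 ± 0.16, edgeR, BH-adjusted p = 0.000191). PCDH17 rose to 2.04 ± 0.245 CPM with prexasertib, against 0.0802 ± 0.0702 CPM with DMSO (log2 4.59 ± 0.78). It passed the filter on low counts only through PEO1 prexasertib, where it is high, so no p-value is given. PCDH19 had 8.68 ± 2.28 CPM with prexasertib and 2.36 ± 0.791 CPM with DMSO (1.87 ± 0.61, adjusted p = 0.0327), and PCDH9 followed at 1.84 ± 0.55 (adjusted p = 0.0226), both by edgeR. The PCDH19 call was lost without any 1 of the 6 PEO1 libraries, and the PCDH9 call without any PEO1 DMSO library or without PEO1 prexasertib B.

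In COV362 the letter block gave the same list 0 rises and 3 falls, where 13.6% of all tested genes were called. The main fit gave 0 rises and 1 fall, or 5.56%, beside 0.828% of all tested genes, with a median of −0.33. The fall was in CELSR2, a planar polarity cadherin gene, at 31.4 ± 4.51 CPM with prexasertib and 55.6 ± 10.1 CPM with DMSO (log2 −0.83 ± 0.16, edgeR, BH-adjusted p = 0.0295). The CELSR2 call was lost in 8 of 12 leave-outs (COV362 DMSO B or C, COV362 prexasertib A or C, PEO1 DMSO A or B, PEO1 prexasertib B or C), and it was called in PEO1 too, at −0.74 ± 0.16 (adjusted p = 0.00323). Between vehicle groups 7 of the 18 were higher and 8 lower in PEO1, or 83.3%, beside 57.7% of all tested genes. FAT4 was lower (log2 −5.46 ± 0.53, edgeR, BH-adjusted p = 9.59e-07), at 0.64 ± 0.522 CPM in PEO1 DMSO. PCDH18 was lower too (−4.55 ± 0.64) and DCHS2 was higher (4.48 ± 0.90). PCDH18 and DCHS2 passed the filter on low counts only through the line where they are high, so no p-value is given for them.

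Catenins and junction adaptors, which join cadherin tails to the cytoskeleton, numbered 18 tested. In PEO1 1 rose and 4 fell (median −0.23), or 27.8%, near the 29.3% of all tested genes. PLEKHA7, which anchors microtubules at the adherens junction, had 4.99 ± 0.514 CPM with prexasertib and 12.8 ± 1.88 CPM with DMSO (log2 −1.36 ± 0.24, edgeR, BH-adjusted p = 0.00099). JUP, or plakoglobin, fell as well (−0.51 ± 0.17, adjusted p = 0.037), but its call was lost without COV362 prexasertib C, PEO1 DMSO A, PEO1 DMSO C or PEO1 prexasertib B.

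In COV362 edgeR called 0 of the 18 (median −0.20). At an unadjusted p under 0.05, 0 were higher and 2 lower. DESeq2 called 0 higher and 1 lower, and limma-voom called 0. The letter block gave 0 rises and 5 falls, where 13.6% of all tested genes were called. The genes added by the block included PLEKHA7, on the lower side (edgeR, BH-adjusted p = 0.0315). β-catenin, encoded by CTNNB1, was not called in either line, with log2 fold changes of −0.11 ± 0.13 in COV362 and 0.072 ± 0.12 in PEO1. Counts of CTNND1 are uncertain, since a read-through gene of the table covers 93% of its exon length.

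Between the vehicle groups, 6 of the 18 were higher in PEO1 and 7 were lower, or 72.2%, beside 57.7% of all tested genes. The nectin gene PVRL4 stood at 25.2 ± 2.6 CPM in PEO1 and 0.0183 ± 0.0316 CPM in COV362 (log2 9.64 ± 0.42). CTNND2 was higher in PEO1 too (log2 3.84 ± 0.23, edgeR, BH-adjusted p = 9.85e-09).

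Of 18 tested genes of cadherin shedding and turnover, 3 rose and 3 fell in PEO1 (median −0.16), or 33.3%, near the 29.3% of all tested genes. MMP3, a stromelysin, rose to 28.3 ± 1.02 CPM with prexasertib, against 0.683 ± 0.258 CPM with DMSO (log2 5.37 ± 0.47). It passed the filter on low counts only through PEO1 prexasertib, where it is high, so no p-value is given. CBLL1, which encodes the ubiquitin ligase Hakai that targets E-cadherin for uptake, rose to 82.8 ± 8.79 CPM with prexasertib, against 36.2 ± 6.16 CPM with DMSO (log2 1.19 ± 0.22, edgeR, BH-adjusted p = 0.00123). ADAM15, a membrane sheddase gene, fell (−0.80 ± 0.17, adjusted p = 0.00294). ADAM10, a sheddase of E- and N-cadherin, was not called in either line (log2 −0.50 ± 0.19 in COV362 and −0.40 ± 0.19 in PEO1).

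In COV362 edgeR called 0 of the 18 (median −0.064). At an unadjusted p under 0.05, 0 were higher and 2 lower. DESeq2 and limma-voom each called 0 higher and 1 lower. The letter block, where 13.6% of all tested genes were called, gave 0 rises and 3 falls. MMP2 was among them, with 142 ± 33.6 CPM with prexasertib and 245 ± 22 CPM with DMSO (log2 −0.79 ± 0.18, edgeR, BH-adjusted p = 0.0716, and 5.14e-07 with the block). In PEO1 DMSO MMP2 had 0 counts, at least 4190-fold lower than in COV362 DMSO. Of the list, 4 were higher and 5 lower in PEO1 DMSO, or 50%, beside 57.7% of all tested genes. Among them were MMP3 (log2 3.6 ± 1.0, a call lost in a fit on only the DMSO groups) and MMP7 (−2.89 ± 0.47). Each passed the filter on low counts only through the line where it is high, so no p-value is given.

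Transcription factors and splicing regulators of cadherin switching numbered 21 tested. In PEO1 5 rose and 5 fell (median −0.18), or 47.6%, beside 29.3% of all tested genes. The rises included factors known to repress epithelial genes and factors known to favour them. SNAI1, a repressor of CDH1, rose to 22.5 ± 2.13 CPM with prexasertib, against 8.05 ± 1.18 CPM with DMSO (log2 1.48 ± 0.23, edgeR, BH-adjusted p = 0.000439). ZEB1, another repressor, rose to 4.6 ± 2.27 CPM with prexasertib, against 1.75 ± 0.275 CPM with DMSO (1.38 ± 0.46, edgeR, adjusted p = 0.0366). OVOL1, an epithelial factor that opposes ZEB1, rose to 16.4 ± 4.48 CPM with prexasertib, against 7.1 ± 1.02 CPM with DMSO (1.21 ± 0.32, edgeR, adjusted p = 0.0151). The ZEB1 call was lost under limma-voom and without any PEO1 DMSO library or PEO1 prexasertib B or C. The OVOL1 call was lost without PEO1 DMSO B or C or PEO1 prexasertib A or C. In the same libraries the CDH1 log2 fold change was −0.18 ± 0.23.

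In COV362 1 of the 21 rose and 1 fell, or 9.52%, beside 0.828% of all tested genes, with a median of −0.078. The letter block gave 4 rises and 2 falls, where 13.6% of all tested genes were called. KLF4 rose to 24.3 ± 4.75 CPM with prexasertib, against 11 ± 3.85 CPM with DMSO (log2 1.12 ± 0.22, edgeR, BH-adjusted p = 0.0329). EHF, an epithelial ETS factor, fell to 3.32 ± 0.825 CPM with prexasertib, against 8.52 ± 2.38 CPM with DMSO (−1.37 ± 0.23, adjusted p = 0.0106). The KLF4 call was lost in 9 of 12 leave-outs, all but COV362 DMSO A, COV362 prexasertib A and PEO1 DMSO A, and the EHF call without COV362 DMSO B or COV362 prexasertib C. EHF was called in PEO1 too, on the higher side (1.02 ± 0.19, adjusted p = 0.00149). SNAI1 had a log2 fold change of 0.86 ± 0.24 (adjusted p = 0.129, and 0.00773 with the block, both edgeR).

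Between vehicle groups 14 of the 21 regulators were higher in PEO1 and 4 were lower, or 85.7% called, where 29.1% of all tested genes were higher and 28.6% lower. The list median was 2.11, beside −0.0077 for all tested genes. GRHL2, KLF8 and OVOL1, among others, passed the filter on low counts only through PEO1, so their direction was fixed by the filter. Such genes remain in these counts and in the median, so no contrast with all tested genes is read from either. GRHL2, an activator of CDH1, had 83 ± 3.61 CPM in PEO1 DMSO and 0 counts in COV362 DMSO, at least 1160-fold higher. KLF8 and OVOL1 also had 0 counts in COV362 DMSO and were at least 167-fold and at least 98.1-fold higher in PEO1 DMSO. The repressors named above went both ways. SNAI1 had 8.05 ± 1.18 CPM in PEO1 DMSO and 4.57 ± 0.951 CPM in COV362 DMSO. ZEB1 had 1.75 ± 0.275 CPM in PEO1 DMSO and 31.7 ± 15.2 CPM in COV362 DMSO. CDH1 stood at 114 ± 8.79 CPM and 0.346 ± 0.153 CPM in the same PEO1 and COV362 groups.

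**Figure D5:**
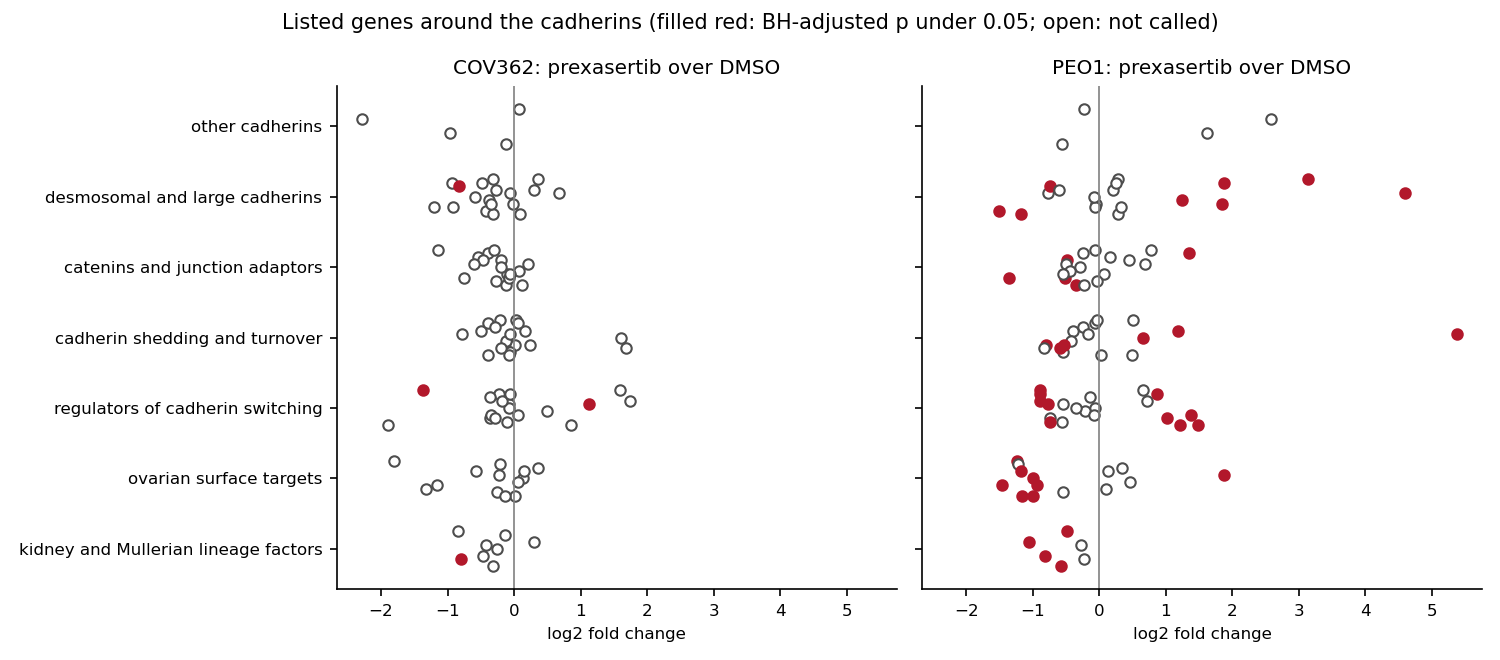
Log2 fold change of prexasertib over DMSO for the tested genes of the 7 lists, COV362 left and PEO1 right, with called genes filled. Genes with 0 counts in a group are not drawn; 4 list genes are called in COV362 and 41 in PEO1, and the surface targets of PEO1 lie mostly below 0.

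CDH6 is itself a surface target, so 17 other targets of ovarian cancer therapies were set beside it, of which 15 were tested. In PEO1 1 rose and 7 fell (median −0.93), or 53.3% called, where 14.7% of all tested genes were higher and 14.6% lower. LY6E fell to 23.8 ± 2.55 CPM with prexasertib, against 65.3 ± 9 CPM with DMSO (log2 −1.46 ± 0.23, edgeR, BH-adjusted p = 0.000568). ERBB2, or HER2, fell to 62.8 ± 5.03 CPM with prexasertib, against 147 ± 4.73 CPM with DMSO (−1.23 ± 0.15, adjusted p = 7.39e-05). SLC34A2, the sodium-phosphate transporter NaPi2b, rose to 4.61 ± 0.415 CPM with prexasertib, against 1.26 ± 0.397 CPM with DMSO (1.88 ± 0.58, adjusted p = 0.0261), and its call was lost without PEO1 DMSO B or C or any PEO1 prexasertib library.

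In COV362 edgeR called 0 of these 15 (median −0.21). At an unadjusted p under 0.05, 0 were higher and 2 lower. DESeq2 called 0 higher and 1 lower, and limma-voom called 0. The letter block gave 1 rise and 2 falls, where 13.6% of all tested genes were called. Between vehicle groups 8 were higher and 4 lower in PEO1, or 80%, beside 57.7% of all tested genes. FOLR1, the folate receptor alpha gene, had 0 counts in PEO1 DMSO and 5.05 ± 1.37 CPM in COV362 DMSO, at least 91.4-fold lower in PEO1.

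Of 8 tested kidney and Müllerian lineage factors, 0 rose and 4 fell in PEO1 (median −0.49), where 14.7% of all tested genes were called higher and 14.6% were called lower. With no adjustment (p under 0.05) edgeR had 0 higher, and DESeq2 and limma-voom each called 0 higher. The letter block had 1 higher and 4 lower, where 7446 of the 14498 tested genes were called. The higher gene was EMX2, on 8 reads with prexasertib and 0 with DMSO. WT1 fell to 4.49 ± 0.715 CPM with prexasertib, against 9.35 ± 0.435 CPM with DMSO (log2 −1.06 ± 0.22, edgeR, BH-adjusted p = 0.00276). LHX1 fell by 0.81 ± 0.16 (adjusted p = 0.00177). PAX8, a lineage factor of kidney and Müllerian epithelium, fell to 97 ± 8.06 CPM with prexasertib, against 144 ± 12.8 CPM with DMSO (−0.57 ± 0.14, adjusted p = 0.0074).

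In COV362 0 of the 8 rose and 1 fell, or 12.5%, beside 0.828% of all tested genes, with a list median of −0.36. The fall was in MEIS1, at 47.7 ± 10.3 CPM with prexasertib and 82.4 ± 10.4 CPM with DMSO (log2 −0.79 ± 0.17, edgeR, BH-adjusted p = 0.0444). The MEIS1 call was lost in 11 of 12 leave-outs, all but COV362 prexasertib A. With the letter block 0 rose and 5 fell, where 13.6% of all tested genes were called. PAX8 (−0.31 and adjusted p = 0.0153), LHX1 (adjusted p = 0.014), EMX2 (1.66e-05) and SOX17 (0.0275) were added by edgeR with that block. Between vehicle groups 3 were higher and 4 lower in PEO1, or 87.5%, beside 57.7% of all tested genes. EMX2 and SOX17 had 0 counts in PEO1 DMSO and were at least 951-fold and at least 653-fold lower there; MEIS1 was lower too (log2 −1.40 ± 0.17, edgeR, BH-adjusted p = 8.8e-06).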

How the data were processed

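RNA of 12 libraries was sequenced, 3 for each of 4 groups. Per the labels' protocols the kit was TruSeq RNA Library Prep Kit v2, which loses strand information. The tools named in the submitters' processing notes are STAR, Subread and featureCounts (version 1.4.6), with build hg38. The authors deposited raw counts per gene, with exon coordinates and lengths per the file headers. Computed from these were TMM-scaled CPM and, with the deposited exon lengths, RPKM.

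Genes were kept with filterByExpr (minimum count 10, minimum total 15). One edgeR 4.0.16 quasi-likelihood fit (R 4.3.3) of 4 group means to 12 libraries left 8 residual degrees of freedom and served 4 comparisons. Adjustment (BH, threshold 0.05) covered the whole set of 14498 genes. The scripts were tested on simulated data. Log2 CPM used a prior count of 1. Floors are 3 counts and cover counting error only.

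The cadherins and the lists were chosen with earlier results of these data known. From each list up to 3 called genes of largest absolute change were named per comparison, where the mean reached 1 CPM. A few list genes outside this rule (CTNNB1, CTNND1, ADAM10, CDH4, CDH23, PCDH1) were named after their values were seen.

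Same-letter libraries of COV362 deviated together (correlations of deviations from the group means of 0.361, 0.368 and 0.119 for A, B and C). The letters were therefore read as pairs in COV362, and the letter block was run as an alternative. The main fit used group means with no pairs. Deviations of the same letter in the DMSO groups of both lines correlated at 0.297, 0.134 and 0.124. The pairing is inferred from the data and not given in the labels. No 2 libraries of a group agreed within sampling noise. Alternatives used limma 3.58.1, DESeq2 1.42.0, other scaling, no filter, the letter block, an exon-length offset and left-out libraries. Sequences are not shown, and a few genes that the naming rule selects are counted in their lists but not reported here by name.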

Additional observations from a re-analysis of the deposited data

Results flagged for a closer look

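Among the genes named by rule around the cadherins, 6 are given here that were called in a test of the difference itself. That test takes the PEO1 response minus the COV362 response (edgeR, BH-adjusted over all tested genes), and 6.1% of all tested genes were called. The 6 were named for large changes in these same libraries. Their p-values therefore come after a selection, and nothing is read from their number. EHF differed by 2.38 ± 0.29 on the log2 scale (adjusted p = 0.000915), with 1.02 in PEO1 and −1.37 in COV362. CDH18 passed the filter on low counts only through COV362 DMSO, where it is high, and is given with no p-value. It differed by 4.85 ± 1.3, with 2.58 in PEO1 and −2.28 in COV362. Neither response was called by itself in the main fit. Those responses rest on 14 reads with prexasertib and 2 with DMSO in PEO1, and on 35 with prexasertib and 155 with DMSO in COV362, and DESeq2 called 0 of the 4 other cadherins, CDH18 among them, for the difference. SLC34A2 differed by 3.20 ± 0.85 (adjusted p = 0.0426), with 1.88 in PEO1 and −1.32 in COV362.

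The other differences were negative. LY6E differed by −1.60 ± 0.32 (adjusted p = 0.0149), with −1.46 in PEO1 and 0.15 in COV362. ERBB2 differed by −1 ± 0.21 (adjusted p = 0.0169), with −1.23 in PEO1 and −0.23 in COV362. WT1 differed by −1.35 ± 0.31 (adjusted p = 0.0235), with −1.06 in PEO1 and 0.29 in COV362.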

How the results depend on the processing

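The log2 fold changes of CDH6 kept their sign under every alternative run, at −1.41 to −1.15 in COV362 and −3.52 to −3.28 in PEO1. Its difference between the lines was −2.37 with the exon-length offset and −2.36 with that offset and the replicate block, against −2.06. The counts of called genes moved more. In COV362, against 120 called, the replicate block gave 1977, block and length offset 1872, the length offset alone 247, DESeq2 533, the fit without the A libraries 330 and the fit on only the COV362 libraries 10. In PEO1, against 4249, the replicate block gave 7446, and block and length offset 7615. For the difference, against 885, the replicate block gave 4906, block and length offset 4866, the length offset 1641 and DESeq2 1966. Leaving out single libraries gave 27 to 128 in COV362, 3011 to 5053 in PEO1 and 328 to 1756 for the difference. In COV362 the counts were 36 without COV362 DMSO B, 74 without DMSO C, 27 without prexasertib C, 69 without PEO1 DMSO B, 78 without PEO1 prexasertib B and 69 without PEO1 prexasertib C. For the difference they were 390 without COV362 DMSO B, 465 without COV362 DMSO C, 1756 without COV362 prexasertib B, 379 without COV362 prexasertib C, 328, 419 and 388 without PEO1 DMSO A, B and C, 406 without PEO1 prexasertib A and 353 without PEO1 prexasertib B. The cause of these moves was not tested, and leave-outs also have fewer samples. In PEO1 same-letter correlations were 0.257, 0.143 and 0.0672, all positive but not all over 0.1, and prexasertib B correlated more with DMSO C (0.191) than with DMSO B. The letters were therefore not taken as pairs there, and whether they mark a shared source is not known. The replicate block added CDH5 to the calls in COV362 and changed no other call of a cadherin. No value for the difference exists on only the groups compared. Depth limits CDH16 in both lines and CDH1 and CDH3 in COV362, at 16 reads or fewer per group.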
